A study of Drosophila melanogaster with 3 samples.

Results

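Translation initiation factors (eIF) bring the initiator tRNA, the ribosomal subunits and an mRNA together at a start codon, and elongation factors (eEF) then deliver aminoacyl-tRNAs and move the ribosome along. The core factors are needed in nearly every cell, and many of their genes are known for strong, broadly active promoters. The group described here is every protein-coding gene of the Ensembl annotation whose symbol starts with eIF or eEF, which gave 52 genes of 13968 coding genes on the chromosome arms, 44 of them eIF and 8 eEF. The members were taken by symbol alone, with no measured value. They therefore also include genes of narrower use, such as eIF4G2, known from the male germ line.

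Chromatin immunoprecipitation with sequencing (ChIP-seq) was made on whole Drosophila melanogaster embryos, 0 to 16 hours old and of both sexes, from 1 transgenic strain, wek-GFP, which stably expresses wek with green fluorescent protein fused at the C terminus. Its product, Weckle, carries zinc fingers and is known for a role in Toll signalling. The 3 biological replicates form 1 group with no second condition. The antibody label is wek and the assay is named as ChIP-seq of a transcription factor, but the free-text note on each library speaks of an input control. The libraries are read here as wek ChIP. Embryos without the fusion were not analysed here, all cell types of the embryo are mixed, and a fusion protein may not bind exactly as the untagged one does.

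A region's signal is the value that the authors' caller gave it, and ranks count from 1 at the highest signal within a list. The authors' thresholded list, made on the pooled replicates, holds 3582 regions, called peaks below, with signals from 146.3 to 4344. Each replicate's own list and the pooled list hold 30000 regions. A gene is called bound when the summit of a peak lies no more than 500 bp from a transcription start site (TSS) of one of its annotated transcripts. Replicate 2 had 2216 regions with a q-value of at most 0.01, against 8919 in replicate 1 and 9834 in replicate 3. The number of reads is unknown, so no counting interval is given.

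Of the 52 factor genes, 18 were bound (34.6%), where 15.4% of all coding genes met the same rule. In the highest 3582 regions of the replicates, 19, 15 and 17 factor genes were bound (17 ± 2, SD, n = 3). These were 36.5%, 28.8% and 32.7% of the group, beside 16.0%, 13.0% and 16.1% of all coding genes. The share was above that of all coding genes in each of the 3 replicates, and 12 factor genes (23.1%) were bound in all 3, beside 7.87% of all coding genes. These shares are descriptions without a test, since the group was picked with results of these data known. Neighbouring genes can share a peak.

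The 18 bound genes came from 7 of the 8 groups of factors. Among the factors of scanning and start-codon choice, 3 of 4 were bound, and among the elongation factors 5 of 8. Of the 16 eIF3 genes 3 were bound (18.8%) and of the 13 eIF4 genes 3 (23.1%), shares near the 15.4% of all coding genes. Of the 3 eIF2 genes 1 was bound, and of the 5 genes of the exchange factor eIF2B none. The gene of the anti-association factor eIF6 was bound, as were both genes of the alternative initiator-tRNA carriers eIF2A and eIF2D. With so few genes per complex, these counts are given without a comparison between complexes.

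**Figure D1:**
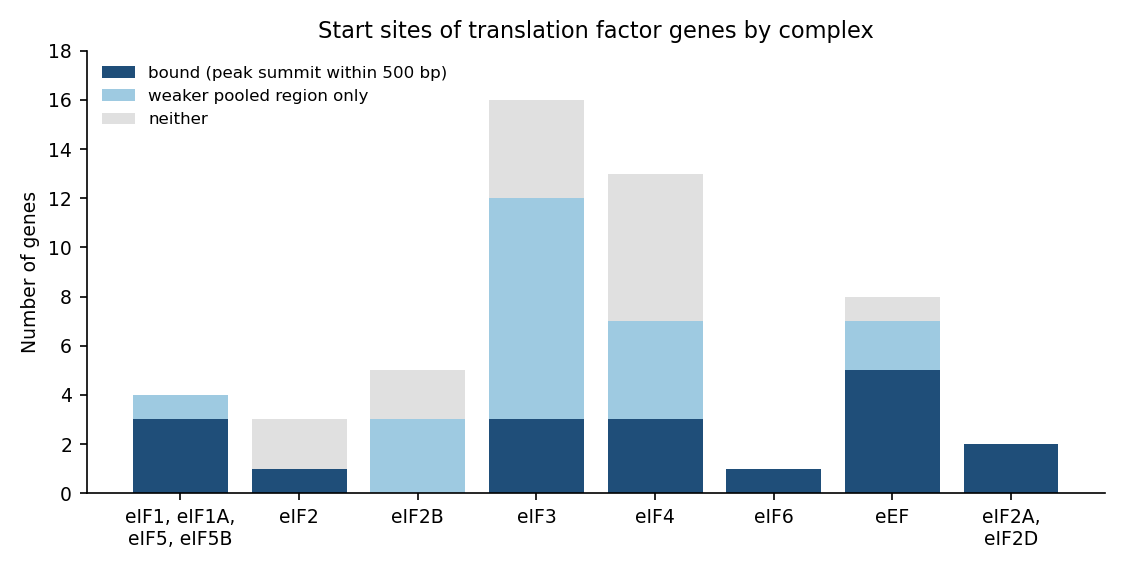
Number of translation factor genes per complex (vertical axis, genes), divided into bound genes (dark), genes with only a weaker pooled region within 500 bp of a TSS (light) and genes with neither (grey). The bound counts are 3 of 4, 1 of 3, 0 of 5, 3 of 16, 3 of 13, 1 of 1, 5 of 8 and 2 of 2 from left to right.

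Under 7 of the 18 summits lay the DRE (TATCGATA, the same on both strands), the site of the factor DREF, a regulator of replication and growth genes. It was found within 100 bp of the summit at eIF1A, eIF6, eEF1gamma, eIF1, eIF2A, eIF3a and eIF4A. That is 38.9% of the bound factor genes, beside 7.67% of the 1695 peaks nearest to a bound coding gene and 3.88% of all 3582 peaks. At eIF1A, eIF1 and eIF3a the peak is shared with a head-to-head neighbour, so the DRE there cannot be given to the factor gene alone. The element was chosen with earlier results of these data known, and the difference was not tested. A match is no more than the presence of these letters. The sequences below show the DRE in capitals in its surroundings at 6 of these genes, on the strand of the factor gene and from the reference genome (dm6), 5′ to 3′. They differ on both sides of the shared element.

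eIF1A, chr3R:18274437-18274496, forward strand: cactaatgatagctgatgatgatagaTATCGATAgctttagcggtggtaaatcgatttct

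eEF1gamma, chr3R:29220105-29220164, forward strand: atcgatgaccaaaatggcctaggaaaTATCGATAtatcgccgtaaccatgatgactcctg

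eIF1, chr3L:3223019-3223078, forward strand: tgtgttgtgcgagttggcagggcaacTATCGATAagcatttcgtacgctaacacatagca

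eIF3a, chr3R:4433900-4433959, reverse strand: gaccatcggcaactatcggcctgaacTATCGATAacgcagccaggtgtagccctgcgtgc

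eIF4A, chr2L:5981686-5981745, forward strand: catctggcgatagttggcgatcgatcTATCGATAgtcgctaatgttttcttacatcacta

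eIF2A, chr3L:21824865-21824894, forward strand: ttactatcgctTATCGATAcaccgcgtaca

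The centre of the element lay 6 bp downstream of the summit at eIF1A and 20 bp upstream of it at eIF3a. It lay 23 bp upstream at eIF4A, 35 bp at eEF1gamma and 53 bp at eIF2A, and 56 bp downstream at eIF1. Relative to the factor gene's own TSS nearest to the summit it lay upstream at all 6, from −34 bp at eIF3a to −292 bp at eIF1. The starts of the neighbours Vps39 and RpL28 lie 219 and 381 bp from those of eIF1A and eIF1. The element there was nearer to the neighbour's start than to that of the factor gene. At eIF2A another annotated TSS lies further upstream than the element. There a second promoter element followed, the M1BP element (GGTCACAC, bound by Motif 1 binding protein), read here from its other strand in capitals.

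eIF2A, chr3L:21824894-21824923, forward strand: acggcaaccgtGTGTGACCaattcaagcac

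The M1BP element was also found at eIF3k and eEF1alpha1, so 3 of 18 summits held it (16.7%, beside 7.49% of promoter peaks). CGATA, the core of the DRE, was present on either strand at 13 of 18 (72.2% beside 38.3% of promoter peaks), a count that includes the 7 with the whole element. No bound factor gene had a GAGA repeat (GAGAGAG) within 100 bp, beside 7.20% of promoter peaks, and the E-box CAGCTG occurred at 1, eIF3h, beside 15.4%. The word GAATACCC, met in earlier results of these data, occurred at eIF3k alone (5.56% beside 4.84%). The median GC content of the 201-base windows was 43.8% at the 18 summits and 40.8% at promoter peaks.

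**Figure D2:**
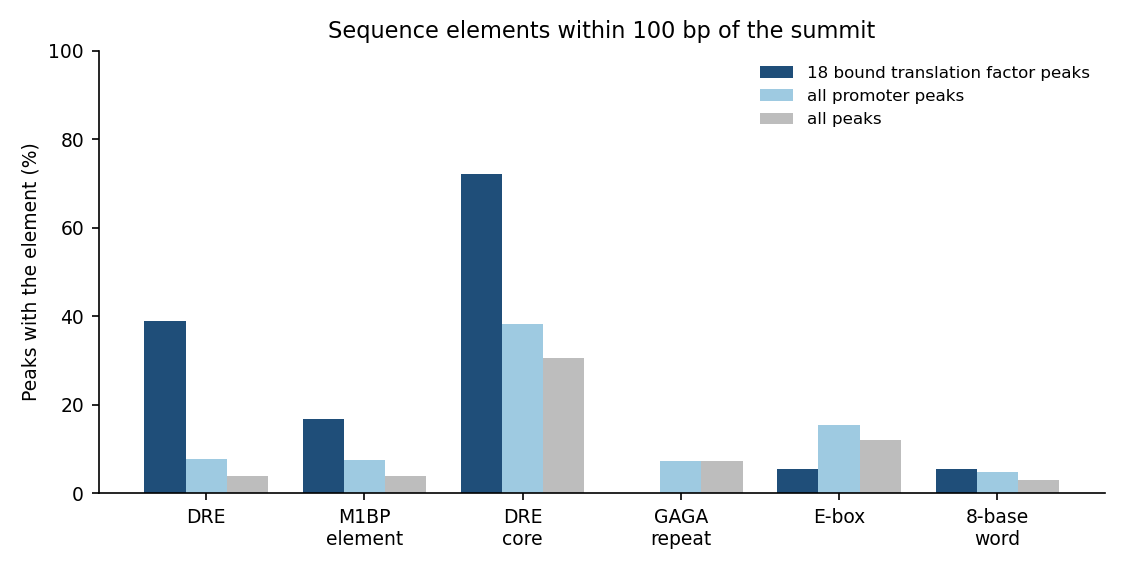
Share of peaks (vertical axis, percent) that hold each element on either strand within 100 bp of the summit, for the 18 bound translation factor genes, all promoter peaks and all peaks. The DRE reaches 38.9% at the factor genes and 7.67% at promoter peaks, and the GAGA repeat is at 0 of 18.

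Counted around start sites in place of summits, the DRE marked unbound factor genes too. Within 250 bp of a TSS it was found at 6 of 18 bound (33.3%) and 9 of 34 unbound factor genes (26.5%), beside 15.9% of bound and 9.52% of unbound coding genes. Among the unbound genes with it were eIF2gamma, eIF2alpha, eIF3c and eIF4B. The M1BP element was found near a TSS of 5 of 18 bound (27.8%) and 4 of 34 unbound factor genes (11.8%), beside 15.8% of bound and 7.98% of unbound coding genes. In this wider window the GAGA repeat was present at 2 of 18 bound factor genes (11.1%), beside 20.0% of bound and 10.9% of all coding genes. The E-box was present at 5 of 18 (27.8%), beside 42.0% of bound and 31.1% of all coding genes.

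The TCT initiator, known from the start sites of ribosomal protein and translation factor genes, was searched for as CTTT with C or T on each side, with its second letter within 5 bp of a TSS on the strand of the gene. It was found at 3 of 18 bound factor genes (eEF2, eEF5 and eIF4A, 16.7%) and 3 of 34 unbound ones (eIF3f1, eIF3i and eIF3m, 8.82%), beside 4.64% of bound and 2.13% of all coding genes. At eEF2 and eIF4A it lay at the gene's TSS nearest to the peak summit, with its second letter 4 bp downstream of the annotated start, as the capitals show.

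eEF2, chr2L:21682096-21682125, reverse strand: gcagcgcctcgcTCTTTCctgtcgaaacgc

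eIF4A, chr2L:5981755-5981784, forward strand: caagatggagccTCTTTTgcttggttttaa

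The peaks of the 18 genes had a median signal of 365.2 and a median rank of 752.5, beside 228.1 and 1675 over all 2155 bound coding genes. Of the 18, 13 lay in the stronger part of the list when it is divided at its median (72.2%, beside 52.4% of bound coding genes), and 4 among the strongest 10% of peaks (22.2% beside 15.5%). In 11 of the 18 (61.1%) the peak overlapped one of the highest 3582 regions of all 3 replicates by at least 1 bp, beside 46.4% of promoter peaks. Since peaks were selected from the same replicates, that overlap is not independent of the selection. It was reached by 15, 13 and 16 of the 18 in replicates 1, 2 and 3. In replicate 2 the highest 3582 regions go beyond the 2216 that had a q-value of at most 0.01.

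**Figure D3:**
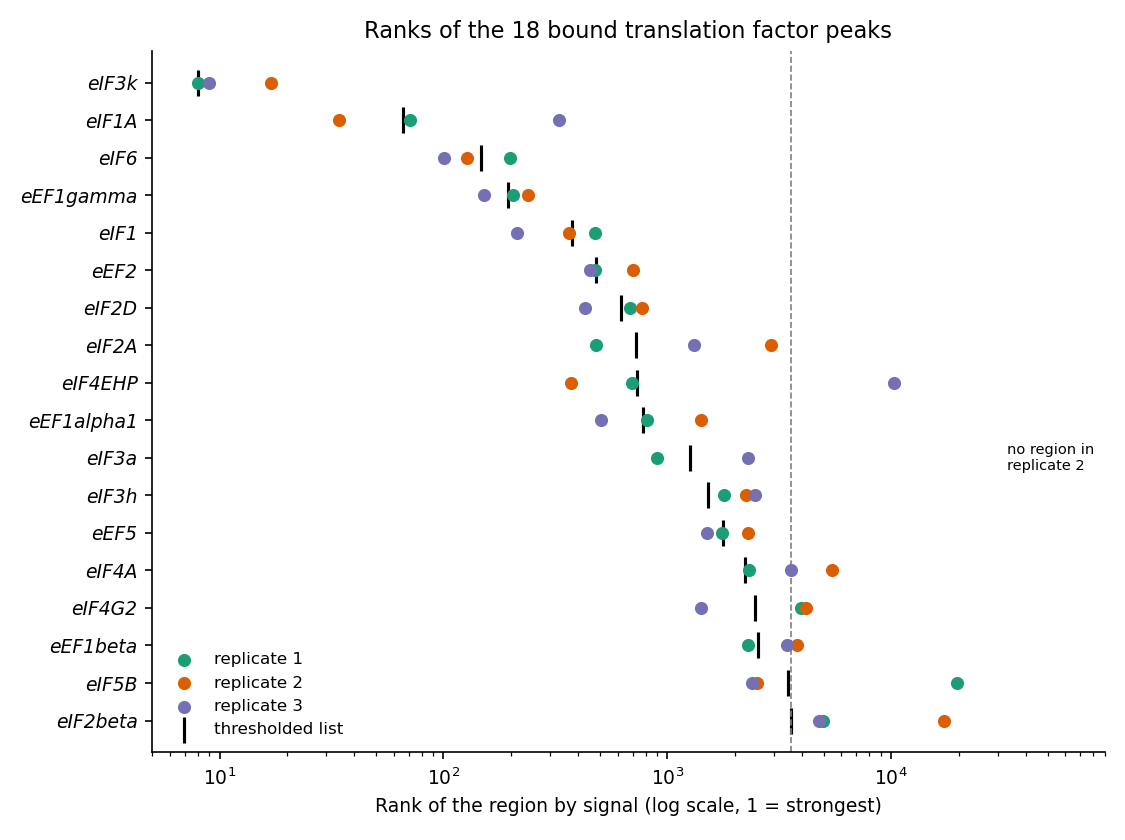
Rank of each bound gene's peak by signal (horizontal log axis) in the thresholded list (black bar) and of the strongest overlapping region in each replicate (points); the dashed line marks rank 3582. The first 8 genes lie left of the line in all replicates, while eIF4EHP lies far right of it in replicate 3, eIF5B in replicate 1 and eIF2beta in replicate 2.

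The strongest peak of the group was at eIF3k, a peripheral subunit of eIF3 (chr2R:21685055-21685473, between genes). Its signal was 2586, at rank 8 of 3582, and it ranked 8, 17 and 9 in replicates 1, 2 and 3 (11.3 ± 4.93, SD, n = 3). Its summit lay 32 bp upstream of the only TSS and at 32, 33 and 32 bp upstream in the replicates. All 3 libraries therefore placed it within 1 bp and among their 17 strongest regions. No other coding gene has a TSS within 500 bp of it.

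The other bound eIF3 genes, eIF3a and eIF3h, had weaker peaks that are shared with a neighbour. The peak at eIF3a, the scaffold subunit (chr3R:4433724-4434093), had a signal of 272.6 and rank 1258, with its summit 14 bp upstream of the TSS. It ranked 901 in replicate 1 and 2285 in replicate 3, and no region of replicate 2 overlapped it. The same summit lies 56 bp upstream of CG1074, which starts head to head. At eIF3h (chr2L:5052728-5052864) the signal was 241.5 and the rank 1526, and the replicates ranked it 1784, 2253 and 2458 (2165 ± 346, SD, n = 3). Its summit was 8 bp downstream of a TSS, and 71 bp upstream of senju. The replicates' own summits there were spread over 191 bp, the widest spread of the 17 genes with a region in every replicate. A second peak at eIF3h, of 191 at rank 2245, lay 304 bp downstream of the same TSS. It was ranked 1683, 2253 and 3922. The region of replicate 2 overlapped both peaks, so the spread is not that of 1 isolated peak.

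In the scanning step, eIF1A and eIF1 help the small subunit find the start codon and eIF5B joins the large subunit. The peak at eIF1A (chr3R:18274199-18274737, between genes) had a signal of 1453 at rank 66. Its regions ranked 71, 34 and 328 in replicates 1, 2 and 3 (144 ± 160, SD, n = 3), so replicate 3 was the low one, and without it the mean rank was 52.5. The summit was 205 bp upstream of eIF1A but 14 bp upstream of Vps39, a gene of vesicle tethering on the other strand. In the replicates a second, weaker summit lay nearer to eIF1A, at −1, 16 and −5 bp with ranks of 817, 2598 and 5356.

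At eIF1 the arrangement was alike. The peak (chr3L:3222863-3223116, signal 566.3, rank 377) had its summit 349 bp upstream of eIF1 and 32 bp upstream of RpL28, a ribosomal protein gene that starts head to head. It ranked 475, 362 and 213 in the replicates (350 ± 131, SD, n = 3). The summit of the pooled list nearest to the eIF1 start was another one, 175 bp downstream of it, with a signal of 92.6 at rank 7471. At eIF5B (chr3L:3460580-3460949) the signal of 149 and rank of 3469 were near the end of the list. Replicates 2 and 3 ranked it 2523 and 2397, whereas replicate 1 ranked it 19634. The mean rank of 8185 was 2460 without replicate 1. eIF5, which triggers GTP hydrolysis by eIF2, had no peak within 500 bp.

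The factors that carry the initiator tRNA differed from one another. eIF2D had a peak with a signal of 416.3 at rank 618 (chr3R:29151720-29151878), 13 bp upstream of its TSS, ranked 682, 774 and 428 in the replicates (628 ± 179, SD, n = 3). A second, weaker peak of eIF2D, of 162.9 at rank 2967, lay 215 bp upstream of that TSS. eIF2A had one of 371.9 at rank 725 (chr3L:21824747-21825116), ranked 478, 2898 and 1312 (1563 ± 1229, SD, n = 3), with replicate 2 lowest and a mean rank of 895 without it. Of eIF2 itself, the canonical carrier, eIF2beta was bound (chr3L:12526316-12526685) by a peak of 147.2 at rank 3552, 230 bp downstream of its TSS in an intron. The replicates ranked it 4979, 17272 and 4780, so none had it among its highest 3582 regions, and the mean rank of 9010 was 4880 without replicate 2. eIF2alpha and eIF2gamma were not bound, and their nearest peaks lay 24157 and 11871 bp away.

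Among the eIF4 genes, which bind the cap and unwind the leader, the bound members were eIF4EHP, eIF4A and eIF4G2. Of these, the peak of eIF4EHP, a cap-binding repressor of translation (chr3R:24109180-24109337, signal 370.8, rank 730), divided the replicates most. Replicates 1 and 2 ranked it 697 and 372, and replicate 3 ranked its strongest overlapping region 10320 (3796 ± 5652, SD, n = 3). Without replicate 3 the mean rank was 534.5. Its summit lay 223 bp upstream of eIF4EHP and 153 bp upstream of CG18428.

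eIF4A, the RNA helicase, had a peak of 192.5 at rank 2217 (chr2L:5981553-5981922), 26 bp upstream of its 5′-most TSS. It was ranked 2323, 5417 and 3559 (3766 ± 1557, SD, n = 3). A second peak of 171.2 lay 76 bp upstream of a downstream TSS of the same gene. eIF4G2, known from the male germ line, had a peak of 182.1 at rank 2455 (chr3R:23819025-23819394), which lies 27 bp downstream of its TSS and of that of CG33111 alike. It was ranked 3945, 4170 and 1409 (3175 ± 1533, SD, n = 3), and only replicate 3 had it among its highest 3582 regions. A second peak, of 160.2, lay 423 bp upstream.

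The cap-binding genes eIF4E1, eIF4E3, eIF4E4, eIF4E5, eIF4E6 and eIF4E7 were all unbound, with the nearest peak from 2636 bp (eIF4E1) to 86359 bp (eIF4E3) away. The scaffold gene eIF4G1 and the helper genes eIF4B, eIF4H1 and eIF4H2 were unbound as well. At eIF4B, the nearest peak lay 579 kb away, the farthest of the group.

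The gene of eIF6, which keeps the large ribosomal subunit from joining too early, had the third strongest peak (chr2R:23850277-23850531, inside an intron of ytr). Its signal was 960.7 at rank 147, and it ranked 198, 128 and 101 in the replicates (142 ± 50.1, SD, n = 3). The summit was 100 bp upstream of the TSS, and at 96, 95 and 102 bp upstream in the replicates. All 3 libraries placed it within 7 bp.

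Elongation factors made up 5 of the 18. eEF1gamma, a subunit of the exchange factor that recharges eEF1alpha, had a peak of 834.2 at rank 194 (chr3R:29220005-29220306), 3 bp upstream of its 5′-most TSS. It ranked 204, 239 and 152 in the replicates (198 ± 43.8, SD, n = 3). eEF1beta, another subunit, had a peak of 178.1 at rank 2552, ranked 2299, 3796 and 3440 (3178 ± 782, SD, n = 3). The eEF1delta gene was unbound, with its nearest peak 5796 bp away and a pooled region of rank 17459 at 80 bp.

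The translocase gene eEF2 had a peak of 485.3 at rank 482 (chr2L:21681996-21682228), 28 bp downstream of a TSS in its 5′ UTR. It was ranked 476, 705 and 452 (544 ± 140, SD, n = 3), close together. eEF5, which helps ribosomes through proline-rich stretches, had a peak of 219.4 at rank 1774, ranked 1758, 2282 and 1503 (1848 ± 397, SD, n = 3). The selenocysteine factor gene eEFSec was unbound.

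The pair of eEF1alpha genes, which encode the carrier of aminoacyl-tRNA, differed. eEF1alpha1 had 2 peaks within 500 bp of its TSSs. The one nearest to a TSS had a signal of 359.7 at rank 775 (chr2R:11892026-11892194), 16 bp upstream of an internal TSS and 971 bp downstream of the 5′-most one, ranked 813, 1412 and 506 (910 ± 461, SD, n = 3). The other had a signal of 272 at rank 1261, 137 bp upstream of the 5′-most TSS, and was ranked 2354, 855 and 946. The start of ERp60, a head-to-head neighbour, was the nearer one, 19 bp from that summit. eEF1alpha2 was unbound, with its nearest peak 4614 bp away at CG1896 and its nearest pooled region, of rank 10436, 1557 bp upstream. The files do not show how reads shared by the similar copies were handled.

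**Figure D4:**
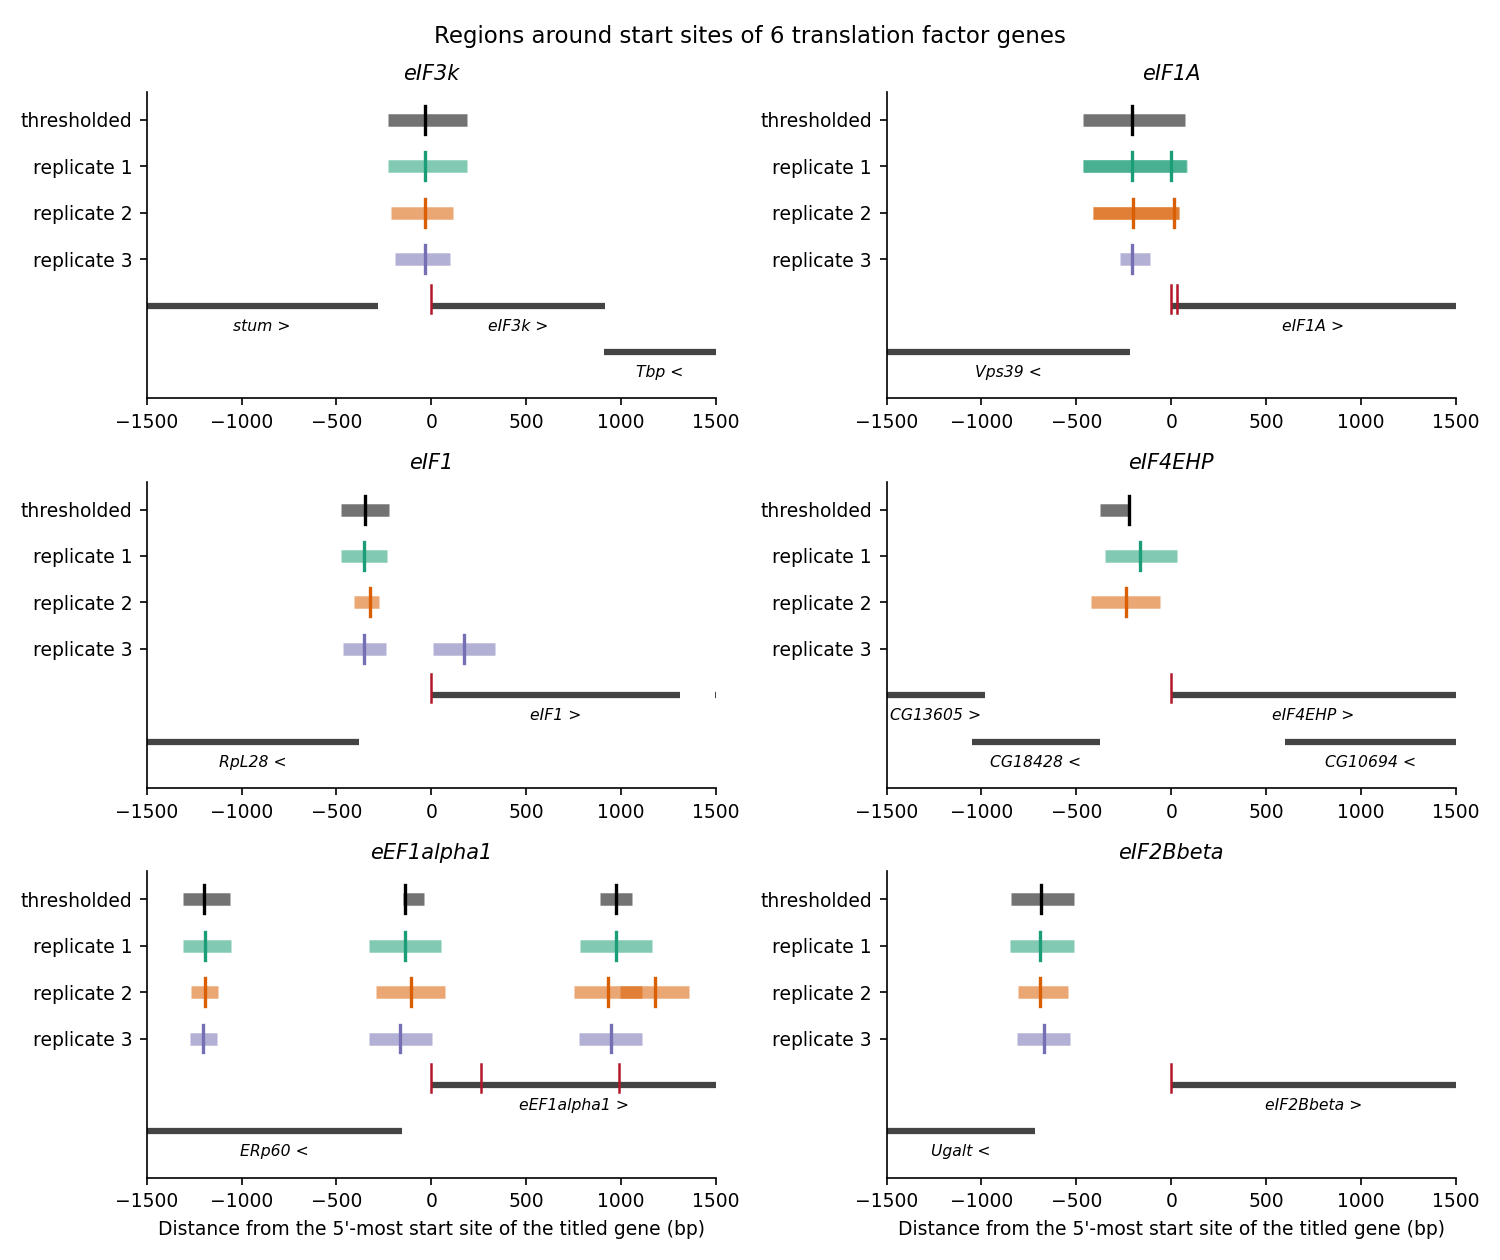
Thresholded peaks and those regions that rank within the highest 3582 of each replicate (bars, summits as vertical ticks) against the distance from the 5′-most TSS (horizontal axis, bp) at 6 genes; dark lines are genes, > on the strand of the titled gene and < on the other, and red ticks mark its TSSs. The peaks at eIF1A, eIF1 and eIF2Bbeta sit beside the start of the neighbour, as does the peak 137 bp upstream of eEF1alpha1, which has another at an internal TSS.

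Summits were close to the start sites. Of the 18, 12 lay upstream of the nearest TSS of the gene (66.7%, beside 72.8% of bound coding genes), with a median position of −15 bp against −64 bp. In 11 the summit was within 50 bp of a TSS (61.1%, beside 31.6%). The 11 were eIF3k, eEF1gamma, eEF2, eIF2D, eIF2A, eEF1alpha1, eIF3a, eIF3h, eEF5, eIF4A and eIF4G2. Positions within 500 bp follow from the rule, and how they are spread inside it does not. Factor genes that were bound had a median of 2 annotated TSSs and unbound ones 1, which gives the former more chances to be called bound and to have a TSS close by. The same 18 genes were bound when only the 5′-most TSS was used. The part of the number of TSSs in the distances, and in the share of all coding genes, was not tested.

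**Figure D5:**
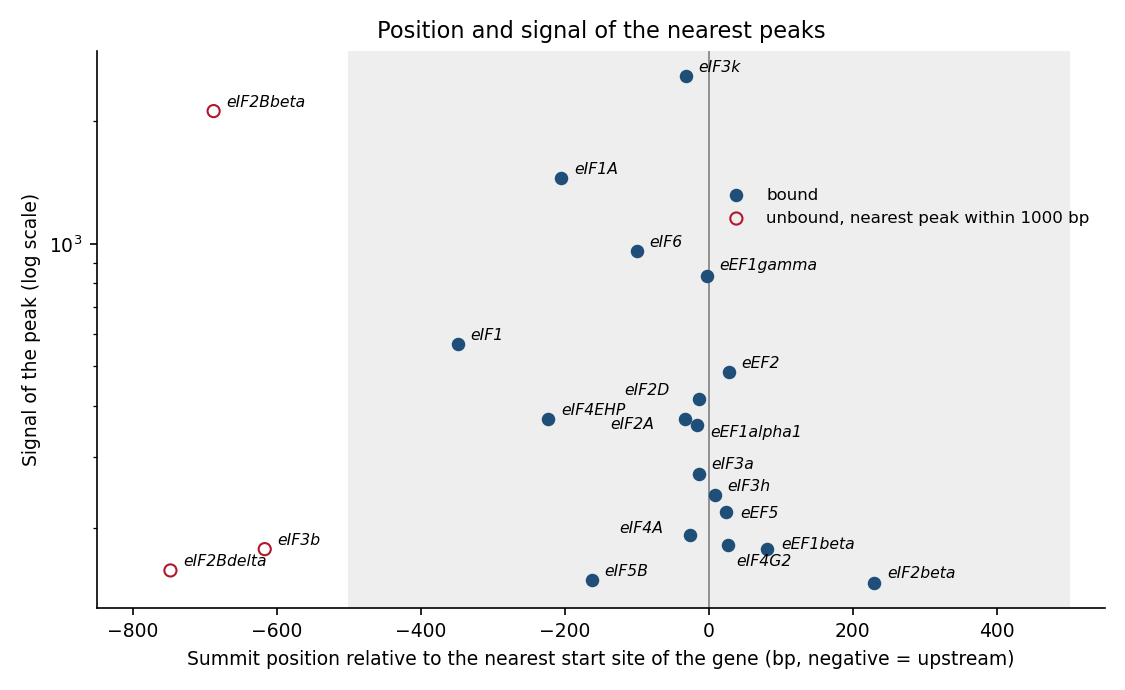
Signal of the nearest peak (vertical log axis, authors' units) against its summit's position relative to the nearest TSS of the gene (horizontal axis, bp, negative upstream), for the 18 bound genes (filled) and the 3 unbound ones with a peak within 1000 bp (open); grey marks the window of 500 bp. Most filled points cluster within 50 bp of the TSS, and eIF2Bbeta has a signal of 2121 outside the window.

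At 6 of the 18 (33.3%, beside 44.1% of bound coding genes) the peak cannot be given to the factor gene alone, because its summit also lies within 500 bp of a TSS of another coding gene. They were eIF1A, eIF1, eIF4EHP, eIF3a, eIF3h and eIF4G2, and at the first 3 the neighbour's TSS was the nearer one. A head-to-head neighbour within 1000 bp was found at 9 of 18 bound factor genes and at 16 of 34 unbound ones (47.1%), beside 50.7% of bound and 30.1% of unbound coding genes.

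The limit of 500 bp decided a few calls, with 17 genes bound within 250 bp and 21 within 1000 bp. The threshold on signal decided more, as 37 of 52 had a pooled region, background included, within 500 bp. Taking each gene's nearest peak, the farthest summit inside the window was that of eIF1 at 349 bp, and the nearest outside were those of eIF3b at 617 bp (signal 177.8), eIF2Bbeta at 688 bp and eIF2Bdelta at 748 bp (157.6). The peak near eIF2Bbeta, a regulatory subunit of the exchange factor eIF2B, was the 21st strongest of all peaks (chrX:2703725-2704059), stronger than that of any bound factor gene but eIF3k, and within 500 bp of Ugalt. The weakest bound gene was eIF2beta at rank 3552. The unbound gene whose nearest pooled region within 500 bp ranked highest was eIF3m, at rank 4953 with a signal of 119.3.

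Weaker pooled regions also lay at many of the unbound genes. By its name the pooled list holds peaks and background, and 6488 of its 30000 regions had a q-value of at most 0.01. Of the 34, 19 had the summit of a pooled region within 500 bp of a TSS, with the nearest at ranks from 4953 to 27205. The median rank of 10388 is beyond the number of regions at that q-value, so many of these may be background. With the bound genes this made 37 of 52 (71.2%), beside 52.0% of all coding genes. Both shares include the bound genes, which have such a region by definition. Of all 13968 coding genes, 7257 had a pooled region within 500 bp, and 2155 of these were bound. In the unbound eIF3 genes these were eIF3m, eIF3c (rank 5578), eIF3b (6140), eIF3j (8446), eIF3l (9637), eIF3f1 (9951), eIF3i (19269), eIF3g1 (24547) and eIF3e (27205). The second gene copies eIF3d2, eIF3f2 and eIF3g2, and eIF3d1, had none. Of the 34, 4 reached the highest 3582 regions of exactly 1 replicate: eIF3b and eIF4G1 in replicate 1, eIF3c in replicate 2 and eIF3l in replicate 3. The same count over all unbound coding genes was not made, so no share stands beside it.

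Regulators and partners of the factors were looked up as well, from a list of 40 symbols of which 38 matched the annotation. Of these, 8 were bound (21.1%, beside 15.4% of coding genes), and 10, 5 and 9 in replicates 1, 2 and 3. These were 26.3%, 13.2% and 23.7% of the list, beside 16.0%, 13.0% and 16.1% of coding genes, so that in replicate 2 the share was that of coding genes at large. The strongest peak was at Thor, which encodes the eIF4E-binding repressor 4E-BP (signal 392.2, summit 23 bp upstream of the TSS). It was followed by Lk6, the kinase of eIF4E (270.4), the poly(A)-binding protein gene pAbp (242.9) and Gcn2, a kinase of eIF2alpha (241.8). Dph1, of the diphthamide pathway that modifies eEF2, had 229.2. Pdcd4, which encodes an inhibitor of eIF4A, had 171.2, S6k 163 and Tsc1 162.4. The summits at Gcn2, S6k and Tsc1 also lie within 500 bp of a TSS of another gene (Ugt35D1, kri and GatB). Those peaks cannot be given to the listed gene alone. At pAbp the summit was 458 bp downstream of the TSS, close to the limit of the window. The release factor genes eRF1 and eRF3 were not bound.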

How the data were processed

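The ChIP-seq data are lists of regions on dm6, per the labels, from 3 biological replicates (chromatin sheared to 200 to 800 bp). The authors called relaxed lists per replicate and on the pooled replicates against 1 control, and made the thresholded list by the irreproducible discovery rate, per the file headers and names. Which caller, aligner and threshold were used is not given in the sources used here. Used as deposited were each region's signal, the value of the authors' caller, its −log10 q-value and its summit. All 3582 thresholded regions were identical to the strongest pooled ones. Summits at or beyond a region's end were moved to its last base (2 in replicate 1, 2 in replicate 2).

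TSSs came from Ensembl release 115 (BDGP6.54) and bases from the RefSeq copy of that assembly, with Python 3.11.15 and pandas 2.3.3. For each gene the summit nearest to any TSS was taken, equal distances going to the higher signal. Replicate values of a bound gene are those of the strongest region overlapping its peak. The search for summits and elements was tested on simulated data. Every bound gene is named. Members, lists and elements were chosen with earlier results of these data known, and no test was run, as there is 1 group. Alternatives changed the window, threshold, TSS, overlap, replicates and element window.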

Additional observations from a re-analysis of the deposited data

How the results depend on the processing

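The count of 18 bound factor genes was 17 within 250 bp, 21 within 1000 bp, 19 by overlap of the region with the window, 18 from the 5′-most TSS and 13 among the stronger peaks alone. Counting genes bound in the highest 3582 regions of both remaining replicates, with 1 left out, gave 13 to 15, and eIF2beta was lost each time. The mean per replicate of 17 became 11.7 ± 1.53 with 50% as many regions and 20 ± 8.19 (22, 11 and 27) when regions were kept by a q-value up to 0.01, and was 16 to 18 without single replicates. Support by all 3 replicates, 11 of 18, fell to 5 with a reciprocal overlap of 50% and rose to 17 with any deposited region, as those rules are stricter and looser by construction. It was 12 to 14 with 1 replicate left out. Summits upstream were 9 from the 5′-most TSS and 11, 11 and 12 from the replicates' own summits. Peaks near another gene rose from 6 to 11 within 1000 bp. Within 50 bp of the summit the DRE was found at 4, CGATA at 8 and the E-box at 0 of 18, and within 200 bp they were found at 7, 16 and 3. Taking the strongest summit in the window kept the same peak at 17 of 18 genes, and eIF2beta had a slightly stronger one at rank 3508, 281 bp upstream. Leaving out 1 replicate moved the mean rank by over 1.5 times at 5 of 17 genes (eIF1A, eIF2A, eIF4EHP, eIF5B and eIF2beta), to 52.5, 895, 534.5, 2460 and 4880. Reads per library are unknown, and fewer regions passed a q-value of 0.01 in replicate 2.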

Other observations

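A peak summit lay inside 11 of the 52 factor genes (21.2%, beside 11.4% of all coding genes). In 2 genes (3.85%, beside 6.55%) such a peak was more than 500 bp from every TSS of the gene. The median gene length was 1.96 kb for factor genes and 2.16 kb for all coding genes. One was in an intron of eIF4EHP, 2556 bp downstream of the TSS. Its signal was 205.8, and replicates 1, 2 and 3 ranked it 2742, 4349 and 1622. The other was in an intron of eIF5B, 27684 bp downstream of the nearest TSS. Its signal was 187.6, and it ranked 3583, 1651 and 4315.

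The bound factor genes were spread over the large autosomal arms, with 3 of 5 on 2L, 5 of 13 on 2R, 4 of 11 on 3L and 6 of 15 on 3R. Of all coding genes, 14.8% were bound on 2L and 16.2% on each of the other 3 arms. The 1 factor gene on chromosome 4, eIF4G1, was not bound, where 26.2% of coding genes were. None of the 7 on X was bound, where 12.8% of all coding genes were. This count was made after the values were seen and was not tested. Of the 7, eIF2Bbeta, eIF2Bepsilon, eIF3g1, eIF4H1 and eIF5 had a weaker pooled region within 500 bp of a TSS, and eIF2alpha and eIF4E7 had none.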
